A study of Rattus norvegicus with 22 samples.

Results

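Interleukin-1, interleukin-18, the receptors that bind interleukin-1 and the inflammatory caspases were followed across 4 groups of rat brain samples. The 8 genes were chosen by name: Il1a, Il1b, Il1rn, Il1r1, Il1r2, Il18, Casp1 and Casp4. Every probe set annotated to a single symbol among these was taken, which gave 10 probe sets out of 19546 with a single gene symbol, or 8 genes of 13697. Il1a and Il1r1 had 2 probe sets each and the other genes 1. Where a gene is given by 1 value, the probe set with the highest mean log2 signal was used.

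Male Fischer rats carried 9L tumors, grown from a cultured rat glioma line injected into the right caudate nucleus, so every group holds tumor-bearing animals and the tumor groups stem from 1 cell line. Rats 1 to 5 were left untreated and rats 6 to 11 received synchrotron microbeam radiation therapy (MRT) 10 days after implantation, with 400 Gy in the microbeam paths and 18 Gy in the valleys between them. The beam crossed the head from right to left, so the contralateral brain of the MRT rats was irradiated too. The methods give these doses at the tumor and state none for the contralateral brain. RNA was taken 6 h later from tumor and from contralateral brain of the same rat, and 1 Affymetrix Rat Genome 230 2.0 array was run per tissue and rat (22 arrays). The 4 groups are untreated contralateral brain (n = 5), MRT contralateral brain (n = 6), untreated tumor (n = 5) and MRT tumor (n = 6).

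The interleukin-1 system is one of the first alarm systems of injured tissue. Il1a and Il1b encode the agonists interleukin-1 alpha and beta, which bind the signaling receptor encoded by Il1r1 and switch on NF-kB. Il1rn encodes a receptor antagonist that occupies the same receptor without signaling, and Il1r2 a decoy receptor that binds interleukin-1 and passes on no signal. Interleukin-1 beta and interleukin-18 are made as inactive precursors and are cut by caspase-1 once an inflammasome has formed. Caspase-4, the rat counterpart of mouse caspase-11, is known from mouse to sense bacterial lipopolysaccharide in the cytosol and to cleave the pore protein gasdermin D. In brain, microglia, infiltrating monocytes and neutrophils are well known sources of interleukin-1 beta, and neutrophils of Il1r2. Arrays report RNA only, and the cut, secreted proteins were not measured.

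Il1a and Il1b are neighbors on chromosome 3, Il1rn lies elsewhere on the same chromosome, and Casp1, Casp4 and Casp12 follow each other on chromosome 8. RefSeq promoters (build GRCr8, the 250 bases before the transcript start, printed 5′ to 3′ on the strand of the gene) were matched for 6 of the 8 genes, and 4 are shown, those of the 3 interleukin-1 ligands, whose responses differed, and that of Casp1. Il1b lies at chr3:137036582-137036831 (minus strand), Il1a at chr3:136990018-136990267 (minus strand), Il1rn at chr3:27520072-27520321 (plus strand) and Casp1 at chr8:10872580-10872829 (plus strand). Capitals mark matches to the motifs named after the sequences.
Il1b: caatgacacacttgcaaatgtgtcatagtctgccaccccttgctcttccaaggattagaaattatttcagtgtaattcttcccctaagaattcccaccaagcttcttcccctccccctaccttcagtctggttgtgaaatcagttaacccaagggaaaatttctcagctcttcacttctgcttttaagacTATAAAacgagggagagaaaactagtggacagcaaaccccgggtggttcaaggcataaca
Il1a: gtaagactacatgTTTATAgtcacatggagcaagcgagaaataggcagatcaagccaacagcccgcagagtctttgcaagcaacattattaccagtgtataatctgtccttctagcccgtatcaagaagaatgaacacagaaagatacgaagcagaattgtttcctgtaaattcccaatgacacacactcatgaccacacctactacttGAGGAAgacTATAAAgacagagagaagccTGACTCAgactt
Il1rn: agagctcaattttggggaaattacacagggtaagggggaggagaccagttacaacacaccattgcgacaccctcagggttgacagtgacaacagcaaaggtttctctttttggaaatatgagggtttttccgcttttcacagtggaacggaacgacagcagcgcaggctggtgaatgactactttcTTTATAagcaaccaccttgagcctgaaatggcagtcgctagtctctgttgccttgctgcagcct
Casp1: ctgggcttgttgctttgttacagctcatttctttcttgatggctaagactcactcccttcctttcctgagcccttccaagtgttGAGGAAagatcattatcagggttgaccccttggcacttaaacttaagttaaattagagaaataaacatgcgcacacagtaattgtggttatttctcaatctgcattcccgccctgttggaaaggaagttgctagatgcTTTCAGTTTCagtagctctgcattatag

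The motifs were searched on both strands in all 33469 promoters of the table, cut to the same 250 bases, and no matches overlapped in the 4 sequences shown. The TATA box (TATAAA), present in 12.9% of all promoters, was matched in Il1b at bases -60 to -55 from the start and in Il1a at -32 to -27, and on the opposite strand in Il1a at -237 to -232 and in Il1rn at -64 to -59. The AP-1 motif (TGANTCA, 6.34% of promoters) was matched in Il1a at -12 to -6. PU.1 (GAGGAA, 23.3%) was matched in Il1a and Casp1. The interferon-stimulated response element ISRE (GAAANNGAAA, 3.41%) was matched in Casp1 on the opposite strand at -28 to -19. The NF-kB consensus (6.33%) was matched in none of the 4, GAS (TTCNNNGAA, 7.67%) and C/EBP (TTGCNNAA, 9.22%) likewise. Of the promoters not shown, that of Il1r1 held an NF-kB match on the opposite strand at -135 to -126. A match describes letters only, and the absence of one says nothing of a factor beyond this window.

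Signals are array brightness in arbitrary units after RMA normalization by the authors. The 25th percentile of all signals was 58, so that signals below 58 are called low here and their fold changes are understated. Each log2 fold change (log2FC) is the mean log2 signal of MRT minus untreated, ± its standard error from limma. P values were adjusted over all 31042 probe sets tested, and a probe set rose or fell where adjusted p was under 0.05. In a piece of tissue, more cells of a type and more RNA per cell cannot be told apart.

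Proliferation genes mark the tumor samples: Mki67 had a mean log2 signal of 11.72 ± 0.67 (SD, n = 5) in untreated tumor against 5.18 ± 0.28 in untreated contralateral brain. The tumor samples also carried brain RNA, since the summed signal of 5 neuron markers was 26316 to 44352 in untreated tumor against 50732 to 61785 in untreated contralateral brain. Marker sums are given for 2 animals that stood apart in the 8 genes. MRT rat 7 had a summed signal of 377 for 6 neutrophil markers in contralateral brain, where the other 5 MRT rats had 2399 to 4380, and 3315 for 8 monocyte and macrophage markers against 13003 to 16035. Untreated rat 5 had 1071 for the neutrophil markers in tumor, where the other 4 had 294 to 427, and 40391 against 17092 to 23796 for the monocyte and macrophage markers. Such sums weigh the brightest genes most. Of the monocyte and macrophage markers, Lyz2 alone ran from 1965 to 13812 in MRT contralateral brain. In untreated tumor Lyz2 ran from 7372 to 24625 and Vcan from 8131 to 14730.

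In contralateral brain, 7 of the 10 probe sets rose 6 h after MRT and 0 fell, which covers 6 of the 8 genes. Over the whole array 2.86% of probe sets rose in this comparison. Il1b rose most, followed by Casp4, Il1r2, Il1a, Il1rn and Il18, while both probe sets of Il1r1 stayed at low signals and Casp1 did not pass. The median log2FC of the 10 probe sets was 1.11, beside -0.02 over all probe sets tested. In 7 of the 10 the signals of MRT and untreated rats did not overlap, as in 3.79% of all probe sets.

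In tumor, 0 of the 10 probe sets passed, while 0.593% of all probe sets rose there. Before adjustment 4 of the 10 had p under 0.05, as had 8.39% of all probe sets. SAM, the test named in the methods, called 2 as higher (Il1b and Il1r2), and 1.14% of all probe sets. The median log2FC was 0.19, beside 0.00 over all probe sets, and the 2 groups overlapped in all 10, whereas 1.6% of all probe sets showed no overlap. Without untreated rat 5 the tumor comparison called 3 of the 10 as higher (Il1b, Il1a and Il1r2), beside 0.899% of all probe sets. Without MRT rat 7 it called 2 (Il1r2 and Casp4), beside 0.957%.

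**Figure D1:**
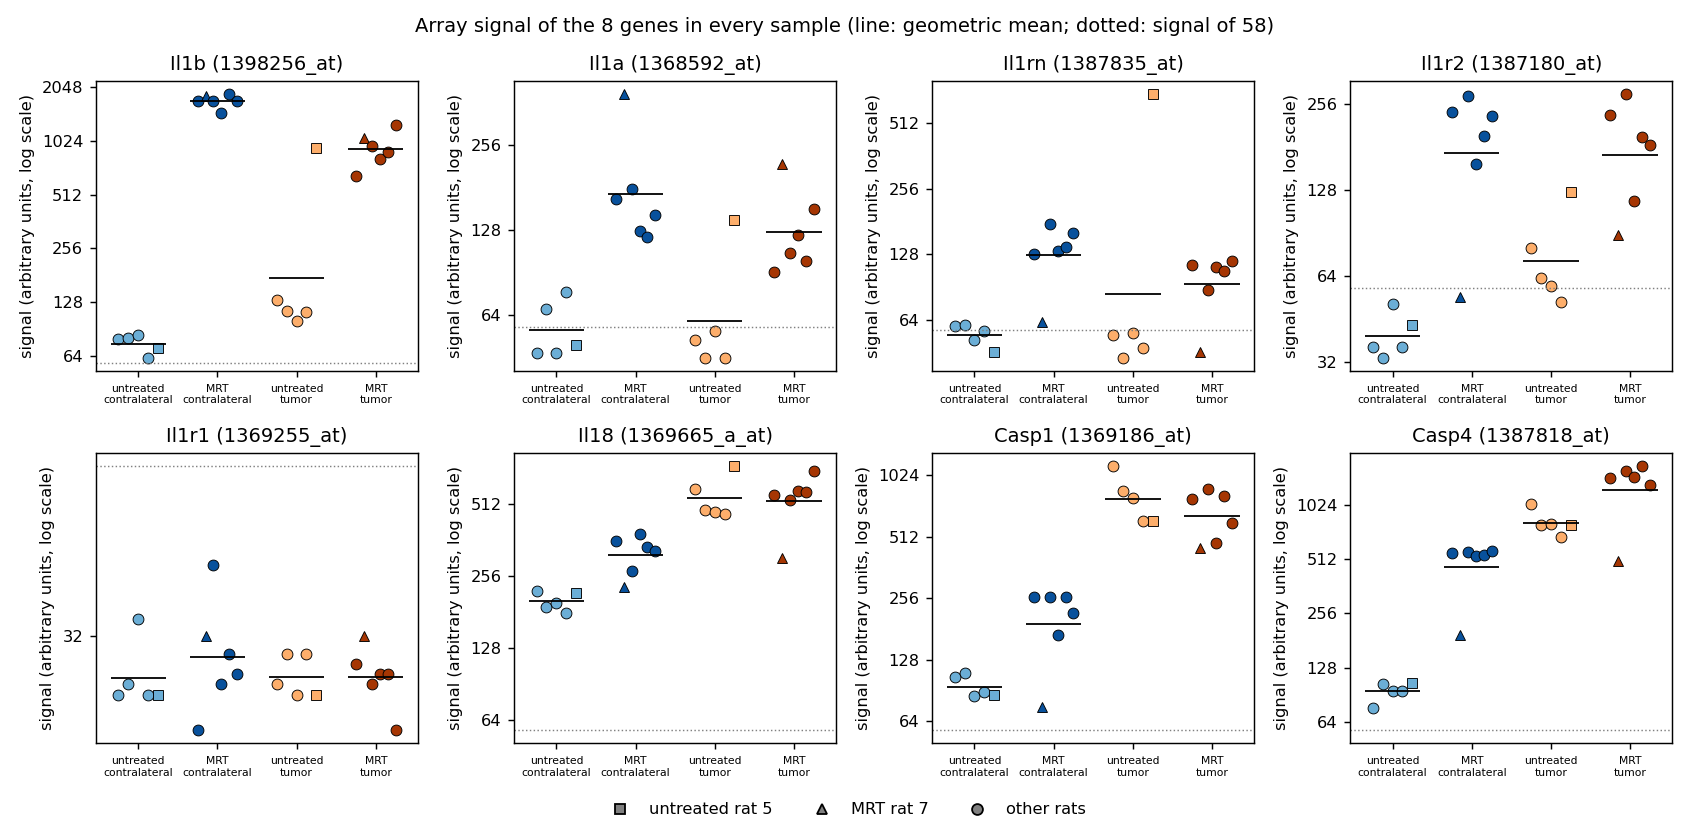
Array signal (arbitrary units, log scale) of the 8 genes, each by its brightest probe set, with 1 point per sample in the 4 groups, the geometric mean as a line and a signal of 58 dotted. The 6 MRT contralateral brains sit between 1473 and 1873 for Il1b and all 5 untreated ones between 62 and 83, while the square of untreated rat 5 lies far above its group in tumor for Il1b, Il1a and Il1rn.

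Il1b (1398256_at), the main secreted interleukin-1, had signals of 79, 80, 83, 62 and 71 in the contralateral brains of untreated rats 1 to 5. In MRT rats 6 to 11 they were 1721, 1832, 1705, 1473, 1873 and 1711. The groups lay far apart, and each varied little, with coefficients of variation of 11.4% and 8.1%. The log2FC was 4.52 ± 0.10 (adjusted p = 9.56e-12), the 10th highest of all 31042 probe sets, and leaving out any rat kept it between 4.46 and 4.57.

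In tumor, Il1b signals were 132, 114, 100, 112 and 939 in untreated rats 1 to 5. MRT rats 6 to 11 had 649, 1066, 964, 809, 884 and 1254. All MRT tumors were above the first 4 untreated tumors, and untreated rat 5 was within the MRT range. The log2FC was 2.40 ± 0.51 (adjusted p = 0.0538) with all rats and 3.01 without untreated rat 5 (adjusted p = 1.65e-05). With all 4 groups in 1 fit, which shares the spread between tissues, the same log2FC gave adjusted p = 0.000568.

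Il1a, whose product acts also from within damaged cells, had signals of 47, 67, 47, 77 and 50 on its brighter probe set (1368592_at) in untreated contralateral brain. After MRT they were 165, 386, 178, 127, 121 and 144, with MRT rat 7 the highest. All MRT brains were above all untreated ones, and the log2FC was 1.60 ± 0.26 (adjusted p = 0.00237), or 1.37 without rat 7. The dimmer probe set (1371170_a_at) rose too, from 29 to 34 up to 48 to 84 (log2FC 0.97 ± 0.14, adjusted p = 0.000736). All its untreated signals were low, and with signals below 58 set to 58 the rise no longer passed (adjusted p = 0.692).

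In tumor, Il1a (1368592_at) had signals of 52, 45, 56, 45 and 139 without treatment and 91, 219, 106, 123, 99 and 151 after MRT. The highest untreated value was again rat 5, inside the MRT range. The log2FC was 1.05 ± 0.31 (adjusted p = 0.227), and 1.35 without rat 5 (adjusted p = 0.0129). The dimmer probe set had 28 to 65 in untreated and 30 to 64 in MRT tumor, with a log2FC of 0.24 ± 0.26 (adjusted p = 0.949).

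Il18 (1369665_a_at) had signals of 221, 189, 198, 180 and 218 in untreated contralateral brain and 357, 230, 268, 384, 338 and 325 after MRT. The groups did not overlap, with rat 7 the lowest MRT brain, just above the untreated range. The rise was the smallest of those that passed, at a log2FC of 0.64 ± 0.13 (adjusted p = 0.0107). Tumor held more Il18 signal, 589, 481, 476, 465 and 736 without treatment and 558, 305, 530, 580, 577 and 702 after MRT, and the groups overlapped throughout (log2FC -0.04 ± 0.20, adjusted p = 0.992).

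Il1rn (1387835_at), the antagonist, had signals of 60, 61, 52, 57 and 46 in untreated contralateral brain. MRT rats 6 to 11 had 129, 63, 176, 133, 139 and 160. All but rat 7 were at least 129, and rat 7 was 2 units above the highest untreated brain. The log2FC was 1.21 ± 0.21 (adjusted p = 0.00423), and 1.41 without rat 7 (adjusted p = 2.5e-06). With all 4 groups in 1 fit, whose shared spread includes the tumor arrays, the call was lost (adjusted p = 0.344).

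Untreated rat 5 decided the Il1rn value in tumor. Signals were 55, 43, 56, 48 and 692 in untreated rats and 114, 46, 88, 112, 108 and 119 in MRT rats, so rat 5 exceeded every other array. The log2FC was 0.14 ± 0.64 (adjusted p = 0.991) with it and 0.90 without it (adjusted p = 0.139). Rat 7, at 46, was the only MRT tumor within the range of the other 4 untreated tumors.

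Il1r2 (1387180_at), the decoy receptor, had low signals of 36, 33, 51, 36 and 43 in untreated contralateral brain. After MRT they were 241, 54, 275, 158, 198 and 234. 5 of the 6 MRT brains were at least 158, while rat 7 was 3 units above the highest untreated brain. The log2FC was 2.13 ± 0.34 (adjusted p = 0.00198), and 2.47 without rat 7 (adjusted p = 3.21e-07). In tumor, signals of 80, 63, 59, 52 and 126 stood against 236, 89, 278, 117, 196 and 185. Untreated rat 5 and MRT rats 7 and 9 made the groups overlap, and the log2FC of 1.24 ± 0.31 did not pass (adjusted p = 0.121). It was 1.45 without rat 5 (adjusted p = 0.0391) and 1.43 without rat 7 (adjusted p = 0.0306).

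Il1r1, the signaling receptor, was at low signals in all 22 arrays on both probe sets. Over all groups 1369255_at ran from 23 to 41 and 1370750_a_at from 19 to 29. The 4 group means of 1369255_at were between 4.79 and 4.89 on the log2 scale and overlapped. After MRT the log2FC of 1369255_at was 0.10 ± 0.13 in contralateral brain (adjusted p = 0.888) and -0.00 ± 0.09 in tumor (adjusted p = 0.999). At such signals a change of the receptor RNA may not have been detectable.

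Casp1 (1369186_at), the caspase of the inflammasome, had signals of 105, 111, 85, 89 and 86 in untreated contralateral brain and 261, 75, 259, 170, 260 and 217 after MRT. 5 MRT brains were above all untreated ones and rat 7 was below them all. The log2FC was 1.01 ± 0.28 and missed the threshold with all rats (adjusted p = 0.0647), but was 1.28 without rat 7 (adjusted p = 3.1e-05). SAM called it, and so did limma with array weights (adjusted p = 0.000496). In tumor, signals of 1133, 853, 794, 615 and 613 without treatment and 788, 451, 875, 478, 810 and 598 after MRT overlapped, with a log2FC of -0.28 ± 0.22 (adjusted p = 0.894).

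Casp4 (1387818_at), the neighbor of Casp1 on the chromosome, had signals of 77, 104, 96, 96 and 105 in untreated contralateral brain. MRT rats 6 to 11 had 555, 194, 561, 529, 539 and 566. 5 MRT brains lay within 529 to 566, and rat 7 was far below them but still above all untreated brains. The log2FC was 2.28 ± 0.25 (adjusted p = 7.05e-05), and 2.53 without rat 7. In tumor, untreated signals of 1028, 788, 799, 680 and 794 stood against 1436, 498, 1572, 1446, 1667 and 1321 after MRT. 5 MRT tumors were above all untreated ones and rat 7 was below all of them. The log2FC was 0.61 ± 0.28 with all rats (adjusted p = 0.588) and 0.87 without rat 7 (adjusted p = 0.00427).

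**Figure D2:**
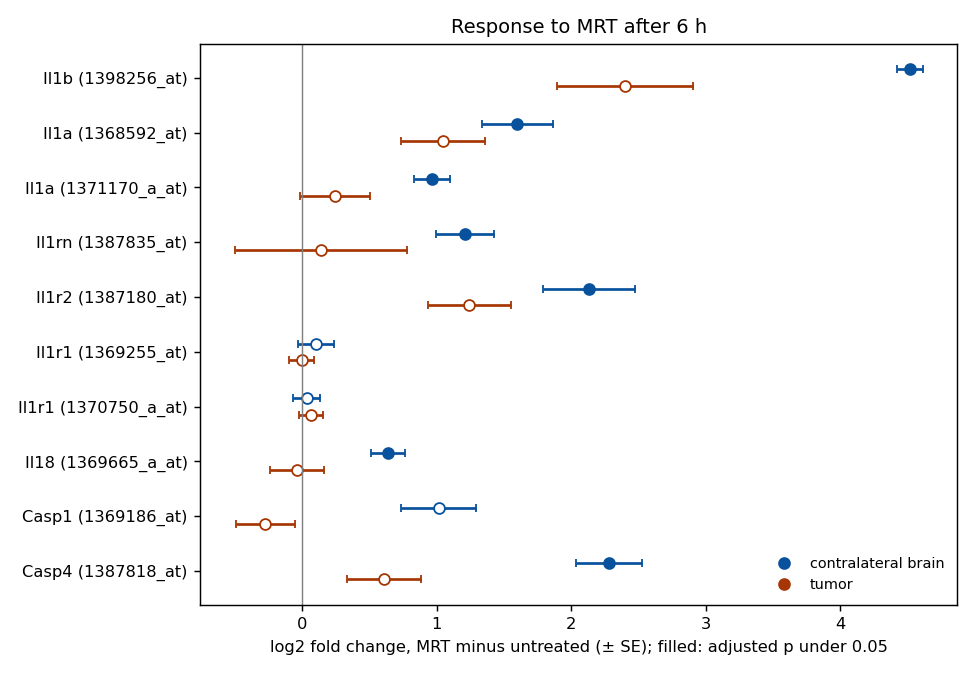
Log2 fold change of each of the 10 probe sets 6 h after MRT (MRT minus untreated, bars: standard error from limma) in contralateral brain (blue) and tumor (orange), filled where adjusted p was under 0.05. In contralateral brain 7 probe sets are filled, from 0.64 for Il18 to 4.52 for Il1b, and in tumor none is.

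The 2 rats that stood apart did so in different ways. In contralateral brain, MRT rat 7 was the lowest of the 6 MRT rats for Il1rn, Il1r2, Il18, Casp1 and Casp4, with distances from the mean of the others of -0.53 (Il18) to -2.01 (Il1r2) on the log2 scale. For the same 5 genes it was the lowest MRT tumor as well. For the agonists it was not low: its Il1b was the second highest of the 6 in both tissues, and its Il1a on the brighter probe set (1368592_at) the highest in both, by 1.41 and 0.97 above the mean of the others. On the dimmer one (1371170_a_at) it was the highest MRT brain, at 84, but among the lowest MRT tumors, at 30. S100a9, a protein abundant in neutrophils, was 103 in the contralateral brain of rat 7 and 1587 to 2849 in the other MRT brains, with 56 to 79 in untreated brains. Across the measured lists rat 7 was the lowest MRT brain also for T cell markers (399 against 586 to 774) and neuron markers (53776 against 53955 to 57728). It was the highest for microglia (2087 against 1188 to 1421), endothelium (3176 against 1587 to 2455), oligodendrocyte (66038 against 56527 to 63244) and proliferation markers (415 against 355 to 412). The part of these cells in the 5 low genes was not tested.

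Untreated rat 5 was the highest untreated tumor for Il1b, Il1a, Il1rn, Il1r2 and Il18. Its distance from the mean of the other 4 was 3.78 for Il1rn, 3.04 for Il1b, 1.5 for Il1a, 1.01 for Il1r2 and 0.56 for Il18, on the log2 scale. Its Casp1 was the lowest and its Casp4 in the middle of the 5. S100a9 was 564 in this tumor and 55 to 124 in the other 4, and the summed signal of 4 proliferation genes was 7452 against 14111 to 20746. In its contralateral brain Il1b was 71 and Il1rn 46, inside or below the range of the other untreated brains. The part of these cells in the high values was not tested.

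Pairs of genes were then set against each other within each array, which asks whether antagonist and agonist, and the 2 caspases, changed alike on these probe sets. Decoy and signaling receptor were set against each other too. For each array the log2 signal of one gene was subtracted from that of the other, and MRT and untreated rats were compared with a two-sided exact permutation test, adjusted over the 6 tests. All 6 passed, but the 2 tests of Il1r2 minus Il1r1 restate the change of Il1r2, since Il1r1 was below 58 in all 22 arrays. The smallest p this design can give is 0.00433. Since probe sets differ in brightness, only changes of these differences are read, not their level.

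Il1rn minus Il1b was -0.67 to -0.12 in untreated and -4.86 to -3.28 in MRT contralateral brain. The difference fell by 3.31 on the log2 scale (exact permutation p = 0.00433, adjusted p = 0.00649), and the groups did not overlap. In tumor the difference was -1.41 to -0.44 without treatment and -4.53 to -2.51 after MRT. It fell by 2.26 (exact permutation p = 0.00433, adjusted p = 0.00649), and untreated rat 5, whose signals of both genes were far from its group, lay at -0.44 next to the other untreated tumors. Leaving out any rat kept the changes between -3.41 and -3.09 in contralateral brain and between -2.42 and -2.02 in tumor. Il1rn was below 58 in 3 of 5 untreated brains and 4 of 5 untreated tumors, where its own change is understated. With signals below 58 set to 58 the changes were -3.41 and -2.37 (exact permutation, adjusted p = 0.00866 for each). That floor raises mostly untreated Il1rn signals, which makes the fall larger. It therefore cannot show how much the understated change of Il1rn adds to the fall.

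Casp4 minus Casp1 was -0.45 to 0.29 in untreated and 1.05 to 1.64 in MRT contralateral brain, a change of 1.27 with no overlap (exact permutation p = 0.00433, adjusted p = 0.00649). Rat 7, low for both caspases, was inside the MRT range. In tumor the difference was -0.14 to 0.37 without treatment and 0.14 to 1.60 after MRT, a change of 0.88 (exact permutation p = 0.013, adjusted p = 0.0156), and rat 7 was the MRT tumor that overlapped the untreated ones.

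Il1r2 minus Il1r1 changed by 2.03 in contralateral brain (exact permutation p = 0.00433, adjusted p = 0.00649), from 0.29 to 0.73 up to 0.75 to 3.39. In tumor it changed by 1.25 (exact permutation p = 0.0216, adjusted p = 0.0216), from 0.79 to 2.28 up to 1.48 to 3.36, with overlap. At the low signals of Il1r1 these tests cannot show whether the 2 receptors changed alike.

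**Figure D3:**
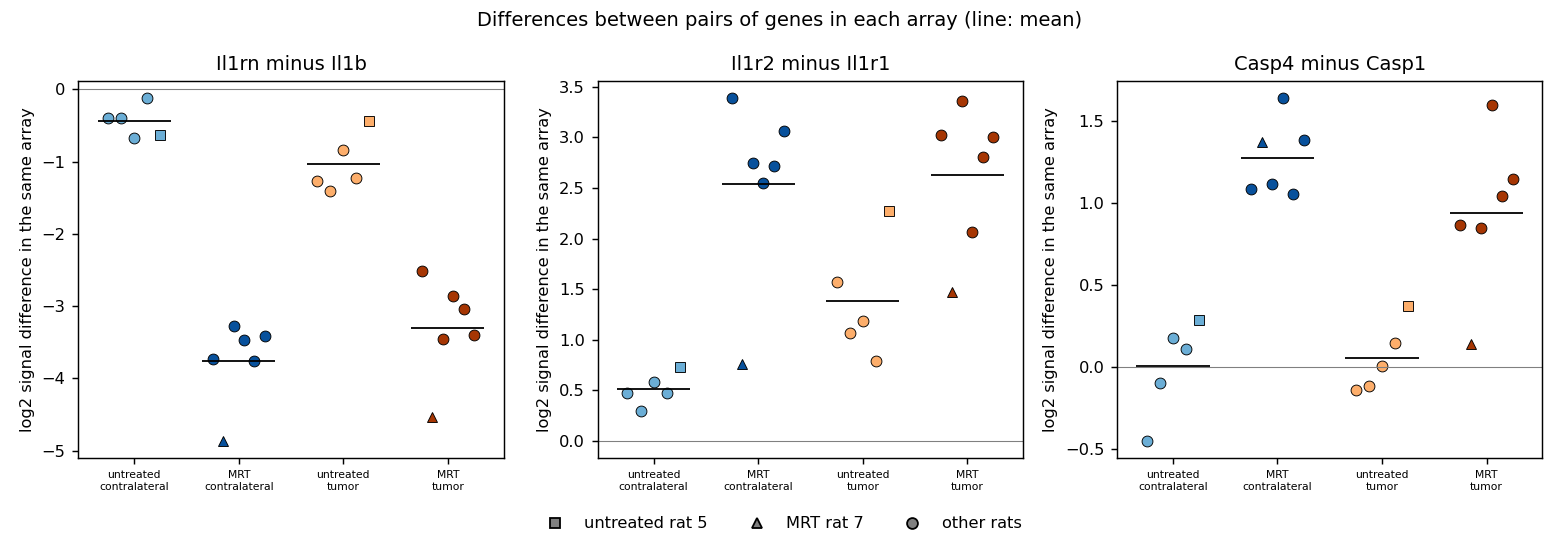
Log2 signal difference of 3 pairs of genes in the same array, 1 point per sample in the 4 groups, with the mean as a line. For Il1rn minus Il1b all 12 MRT samples lie at or below -2.51 and all 10 untreated samples at or above -1.41, while for Casp4 minus Casp1 rat 7 lies inside the MRT range in contralateral brain and at 0.14 in tumor.

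In untreated rats, 5 of the 10 probe sets were higher in tumor than in contralateral brain and 0 lower. Of all 31042 probe sets, 7000 (22.6%) were higher in tumor and 10010 lower, so calls were common in this comparison. The caspases and Il18 were the clear cases. Casp1 was higher by 3.04 ± 0.28 on the log2 scale (adjusted p = 1.39e-08). Casp4 was higher by 3.09 ± 0.29 (adjusted p = 2.01e-08), and Il18 by 1.43 ± 0.18 (adjusted p = 1.37e-06). Every untreated tumor was above every untreated contralateral brain for these 3 genes. The same held for Il1b (100 to 939 against 62 to 83) and Il1r2 (52 to 126 against 33 to 51). The share of all probe sets without overlap was not computed for this comparison. Il1b was higher by 1.22 ± 0.40 (adjusted p = 0.0127), or 0.59 without rat 5 (adjusted p = 0.00325). With the rat as a fixed block (each tumor against the brain of the same rat) the Il1b difference no longer passed (adjusted p = 0.0554). Il1r2 was higher by 0.88 ± 0.36 (adjusted p = 0.0469), a call at low signals that was kept in 3 of the 11 fits that left out 1 rat and lost without rat 5 (adjusted p = 0.14). Il1a (1368592_at) and Il1rn differed by 0.10 ± 0.32 and 0.63 ± 0.52 and did not pass (adjusted p = 0.795 and 0.316). Without rat 5 both turned their direction, to -0.24 and -0.19.

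In MRT rats, 3 of the 10 probe sets were higher in tumor (22.8% of all probe sets were) and 2 were lower (31.4% of all were). Casp1 was higher in tumor by 1.76 ± 0.25 on the log2 scale (adjusted p = 6.57e-06). Casp4 (1.42 ± 0.26, adjusted p = 0.000113) and Il18 (0.75 ± 0.17, adjusted p = 0.000606) were higher too. Il1b was lower in tumor than in contralateral brain, with a log2 difference of -0.90, and every MRT brain (1473 to 1873) exceeded every MRT tumor (649 to 1254). The fit gave adjusted p = 0.0397, which was 0.0511 to 0.11 when any of the 6 MRT rats was left out. Without untreated rat 5, which enters the spread that the groups share, it was 7e-06. The second probe set to be lower was the dim one of Il1a (1371170_a_at, -0.63 ± 0.21, adjusted p = 0.0139), a call lost without rat 7 (adjusted p = 0.0829) or rat 8 (adjusted p = 0.0834). Il1a (1368592_at) and Il1rn were also lower in tumor with the rat as a fixed block (-0.45 and -0.45, adjusted p = 0.0195 and 0.00621), but with the rat as a random block they did not pass (adjusted p = 0.14 and 0.384).

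**Figure D4:**
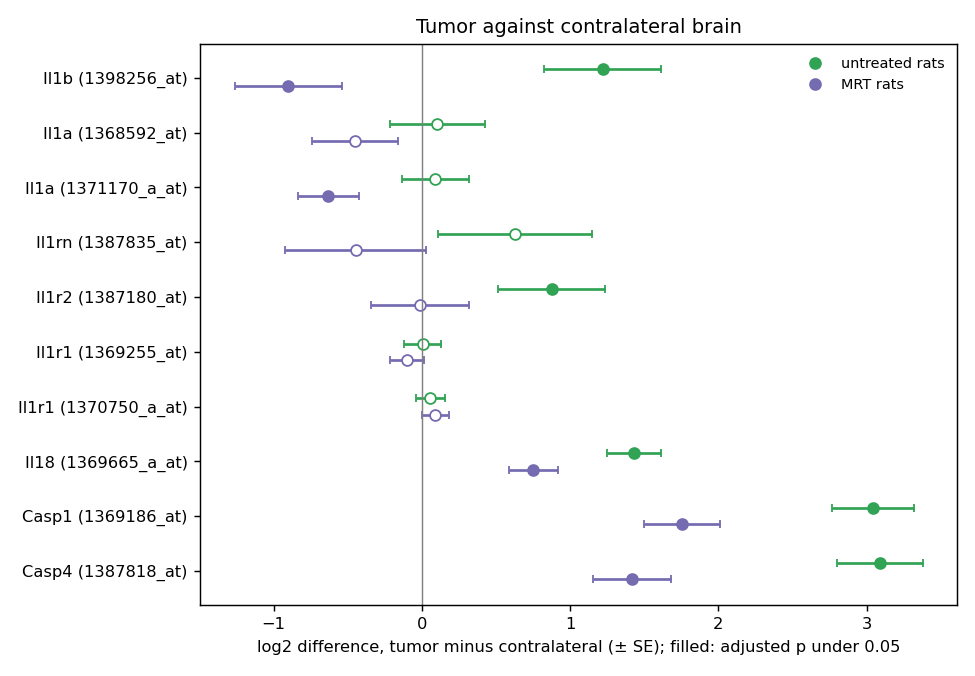
Log2 difference between tumor and contralateral brain (tumor minus contralateral, bars: standard error from limma) in untreated rats (green) and MRT rats (purple) for the 10 probe sets, filled where adjusted p was under 0.05. Casp1 and Casp4 lie above 3 in untreated and below 2 in MRT rats, and Il1b lies at 1.22 in untreated and -0.90 in MRT rats.

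The order of the group means followed from these comparisons. For Il1b it was MRT contralateral brain (mean log2 signal 10.74), MRT tumor (9.84), untreated tumor (7.44) and untreated contralateral brain (6.22), and the middle pair overlapped through untreated rat 5. For Casp4 it was MRT tumor (10.27), untreated tumor (9.66), MRT contralateral brain (8.85) and untreated contralateral brain (6.57), and of neighbors in this order only the tumor groups overlapped. MRT tumor, through rat 7 at 498, also overlapped MRT contralateral brain, which reached 566. For Casp1 and Il18 the means of both tumor groups were above those of both brain groups. MRT tumor signals of Il18 (305 to 702) overlapped those of MRT contralateral brain (230 to 384). Mean log2 signals of Casp1 were 9.61 in untreated and 9.33 in MRT tumor, which overlapped, and 7.58 and 6.56 in MRT and untreated brain, which overlapped too. Il1a and Il1rn were highest in MRT contralateral brain, overlapping with MRT tumor. The 2 MRT groups of Il1r2 had mean log2 signals of 7.43 in contralateral brain and 7.42 in tumor, which give no order.

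Whether the response differed between the tissues was tested as the tumor response minus the contralateral response. With limma 0 of the 10 probe sets passed (5 had p under 0.05 before adjustment, as had 3.85% of all probe sets), and 0.467% of all probe sets passed in either direction. The difference was -1.67 ± 0.39 for Casp4 (adjusted p = 0.0621), -2.12 ± 0.54 for Il1b (adjusted p = 0.109) and -1.29 ± 0.38 for Casp1 (adjusted p = 0.264). The 2 tissues came from the same rats. With the rat as a random block Casp4 (adjusted p = 0.00966) and Il1b (adjusted p = 0.0421) passed, and with the rat as a fixed block Casp4 (adjusted p = 0.000246) and Casp1 (adjusted p = 0.00807), so 2 of the 10 passed with either replicate block, beside 0.696% and 0.66% of all probe sets. Without untreated rat 5, Il1b passed (-1.49, adjusted p = 0.000676), beside 0.47% of all probe sets. Without MRT rat 7, Casp4 (-1.66, adjusted p = 1.05e-06) and Casp1 (-1.46, adjusted p = 0.00409) passed, beside 0.841%.

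The labelling spike-in controls split the rats on their contralateral arrays into 2 groups by the gap between 5′ and 3′ signal, rats 1, 5, 9, 10 and 11 with a small gap and rats 2, 3, 4, 6, 7 and 8 with a large one. In contralateral brain the log2FC within these groups was 4.49 and 4.56 for Il1b, 2.60 and 1.99 for Casp4, 2.30 and 1.96 for Il1r2, 1.43 and 1.85 for Il1a (1368592_at), 1.45 and 0.99 for Il1rn, 1.16 and 0.86 for Casp1, and 0.67 and 0.57 for Il18. All kept their direction within both groups. On the tumor arrays the gap did not separate these groups. Rat 1 of the first group had a gap of -1.459 on the log2 scale there, and rat 6 of the second -1.313. By the same groups of rats, the tumor log2FC was 1.45 and 3.01 for Il1b, where the first group holds untreated rat 5. It was 0.69 and 1.64 for Il1r2, and 0.70 and 0.46 for Casp4. Il1rn in tumor changed its sign between the groups, with -0.79 and 0.67.

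Genes around the 8 were read from 4 lists, each gene by its brightest probe set. Of 9 other measured ligands and receptors of the interleukin-1 family, 2 rose in contralateral brain, with a median log2FC of 0.31. Il18bp, the binding protein that holds interleukin-18 away from its receptor, rose from a mean log2 signal of 7.74 to 8.92 (log2FC 1.19 ± 0.14, adjusted p = 0.000189). Il18r1, the interleukin-18 receptor chain, rose by 0.64 ± 0.08 (adjusted p = 0.000374) at low signals. In tumor 0 of 9 passed with limma (2 before adjustment). The largest value there was that of Il33, an alarm cytokine of the family stored in nuclei, at -0.79 ± 0.21 (adjusted p = 0.144).

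Of 14 measured genes of the inflammasome and of interleukin-1 release, 6 rose in contralateral brain and 0 in tumor by limma. Before adjustment 5 had p under 0.05 in tumor in either direction, as had 8.39% of all probe sets. Gbp2, an interferon-induced GTPase of the guanylate-binding family, rose by 5.72 ± 0.23 in contralateral brain (adjusted p = 9.85e-09), and the receptor of bacterial lipoproteins Tlr2 by 2.05 ± 0.19 (adjusted p = 1.61e-05). Casp12, next to Casp4 on the chromosome, rose by 1.16 ± 0.21 (adjusted p = 0.00565) and Gsdmd, the pore protein gasdermin D, by 0.81 ± 0.16 (adjusted p = 0.0114). Pycard, the adaptor between sensor and caspase-1, had a log2FC of 0.51 ± 0.20 (adjusted p = 0.253). Its value in tumor had the other sign, -0.68 ± 0.17 (adjusted p = 0.108), and its tissue difference was -1.19 (adjusted p = 0.0521). In tumor the largest values were those of Tlr2 (0.97 ± 0.25, adjusted p = 0.124) and Gbp2 (0.97 ± 0.26, adjusted p = 0.159). Gbp2 alone of the list passed the test of the tissue difference (-4.74, adjusted p = 2.11e-07).

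Of 22 measured genes of interleukin-1 receptor signaling, 8 rose in contralateral brain and 4 in tumor. The 4 were the same genes that led in contralateral brain. Nfkbia, the inhibitor that NF-kB itself induces, rose by 2.47 ± 0.12 (adjusted p = 5.67e-08) in contralateral brain and by 1.23 ± 0.15 (adjusted p = 0.00229) in tumor. Nfkbiz, a nuclear cofactor of NF-kB, rose by 1.85 ± 0.14 and 1.01 ± 0.17 (adjusted p = 2.52e-06 and 0.0151). Irak2, a kinase of the receptor complex, rose by 1.60 ± 0.11 and 0.93 ± 0.15 (adjusted p = 9.9e-07 and 0.0127), and Myd88, the adaptor that interleukin-1 and Toll-like receptors share, by 1.58 ± 0.14 and 0.69 ± 0.14 (adjusted p = 1.23e-05 and 0.0451). The medians of the list were 0.21 and 0.15.

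Of 21 genes that interleukin-1 is known to induce, 14 rose in contralateral brain and 6 in tumor, with median log2FC of 1.86 and 1.11. NF-kB induces most of them whatever the signal. Ptges, the synthase of prostaglandin E2, rose by 5.13 ± 0.21 in contralateral brain (adjusted p = 1.24e-08) and by 2.59 ± 0.27 in tumor (adjusted p = 0.00102). Timp1, an inhibitor of metalloproteinases, rose by 4.46 ± 0.35 in contralateral brain (adjusted p = 4.3e-06) and had 0.33 ± 0.13 in tumor (adjusted p = 0.491), where its mean log2 signal was already 13.03. The neutrophil chemokine Cxcl1 rose by 4.32 ± 0.29 and 2.48 ± 0.39 (adjusted p = 1.13e-06 and 0.0127). The monocyte chemokine Ccl2 and the endothelial selectin Sele had log2FC of 7.54 and 5.14 in contralateral brain and 3.12 and 2.79 in tumor. Ptgs2, the inducible cyclooxygenase, did not pass in either tissue (0.40 ± 0.17 and 0.59 ± 0.27, adjusted p = 0.339 and 0.603). 5 genes of this list passed the test of the tissue difference.

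**Figure D5:**
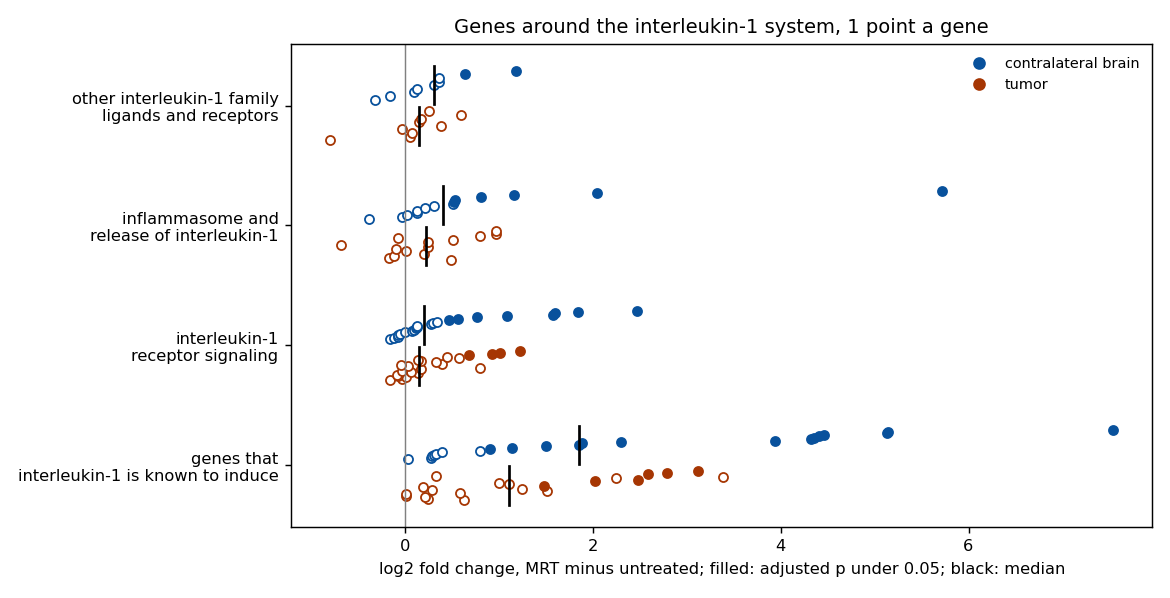
Log2 fold change 6 h after MRT of each gene in 4 lists around the interleukin-1 system, in contralateral brain (blue) and tumor (orange), filled where adjusted p was under 0.05, with the median of each list in black. The genes that interleukin-1 is known to induce spread furthest to the right, with medians of 1.86 and 1.11, and the other interleukin-1 family genes lie close to 0.

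Cell type markers moved as well. In contralateral brain 5 of 6 neutrophil markers and 5 of 8 monocyte and macrophage markers rose, 1 of the latter fell, and 6 of 6 microglia markers fell. Of the other lists there, 3 of 6 T cell, 1 of 5 endothelium and 1 of 4 astrocyte markers rose, 2 endothelium markers and 1 of 4 proliferation genes fell, and 0 of 5 neuron and 0 of 4 oligodendrocyte markers passed. In tumor 2 of 6 neutrophil and 1 of 8 monocyte and macrophage markers rose, and 2 of 6 microglia markers, 2 of 5 endothelium markers and 1 of 4 proliferation genes fell. The summed signal of the neutrophil markers was 289 to 347 in untreated and 377 to 4380 in MRT contralateral brain, and 294 to 1071 and 931 to 2901 in untreated and MRT tumor. Their part in the responses of the 8 genes was not tested.

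The 3 genes with the most similar profile were taken for each of the 8 by Pearson's r of log2 signals over the 22 arrays, as a description, since the arrays share tissue and treatment. For Il1b they were Ccl9 (r = 0.982), Birc3 (0.981) and Cxcl11 (0.980). For Il1a they were Cxcl2 (0.956), Ccl3 (0.937) and Ptafr (0.928). For Il1rn they were Calhm6 (0.898), Cd36 (0.893) and Stra6 (0.889), and for Il1r2 Itgb7 (0.955), Ly6c (0.941) and Fgl2 (0.940). For Il18 they were Rab32 (0.957), RT1-Ba (0.948) and Clec4a3 (0.947). For Casp1 they were Anxa1 (0.983), Mob1a (0.980) and C1s (0.980), and for Casp4 Nfe2l2 (0.982), Cd44 (0.979) and Gadd45a (0.977). For Il1r1, at low signals throughout, they were Mcpt1 (0.821), Cabp4 (0.819) and Dkk3 (0.812). None of the 8 had another of the 8 among its nearest 3.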

How the data were processed

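RNA of tumor and contralateral brain was measured in 22 samples (11 rats). The authors made RMA values in Affymetrix Expression Console, and the deposited signal is an intensity on the linear scale in whole numbers. Without 57 controls, log2 signals of 31042 probe sets were fitted with limma 3.58.1 (R 4.3.3), each tissue alone for the MRT response and all 4 groups for contrasts between tissues, with Benjamini-Hochberg adjustment at 0.05. The number of arrays limits the precision, and p values measure the spread between rats. Pair tests used scipy 1.17.1. The scripts were tested on simulated data. Older symbols were updated through RefSeq names. A probe set annotated COX2, a symbol shared with a mitochondrial gene, was not read as Ptgs2.

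The 8 genes and all lists were chosen with earlier results of these data known. Named beside the 8 are up to 4 genes per list past the test in a tissue by size of log2FC (the largest where none passed) and 3 nearest profiles each. Pycard, Ptgs2, Mki67 and S100a9 were added after their values were seen. The same animal gave both tissues, and residuals of same-rat arrays correlated at 0.097 to 0.649 (median 0.312, n = 11 pairs). The methods name 2 sessions, which the labels do not assign to rats, so no session term was fitted. Alternatives were a floor at 58, a brightness filter, cyclic loess, array weights, trend and robust variances, a joint fit, SAM, rat blocks, spike-in groups, a threshold of 0.01, 1 probe set per gene, the mean of probe sets and leaving out each rat.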

Additional observations from a re-analysis of the deposited data

Results flagged for a closer look

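In each group of 5 or 6 samples, the distance of the highest or lowest log2 signal from its neighbor was set against the whole range (Dixon's test, 95% level). Of 40 combinations of probe set and group, 14 had a sample apart. The combinations share the same rats, and the share over all probe sets was not computed, so this count has no baseline. MRT rat 7 accounts for 8 and untreated rat 5 for 4.

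Rat 7 was far below the other MRT contralateral brains for Casp4 (194 against 529 to 566), Casp1 (75 against 170 to 261), Il1r2 (54 against 158 to 275) and Il1rn (63 against 129 to 176), and far above them for Il1a (1368592_at, 386 against 121 to 178). In tumor it was far below the others for Casp4 (498 against 1321 to 1667), Il18 (305 against 530 to 702) and Il1rn (46 against 88 to 119).

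Rat 5 was far above the other untreated tumors for Il1rn (692 against 43 to 56), Il1b (939 against 100 to 132) and both Il1a probe sets (139 against 45 to 56 on 1368592_at, 65 against 28 to 31 on 1371170_a_at).

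The other 2 samples apart were within narrow ranges in untreated contralateral brain: Il1r1 (1369255_at) in rat 3 (34 against 26 to 27) and Casp4 in rat 1 (77 against 96 to 105).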

How the results depend on the processing

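Of the 10 probe sets, the count that passed in contralateral brain (7) was 3 with only probe sets brighter than the median tested, where fewer of the 10 enter, and 4 within the large-gap spike-in group (3 rats against 3). In tumor the count (0) was 1 with the brightness filter, trend and robust variances, the joint fit, the spike-in covariate or the large-gap group (Il1b each time), 2 with SAM and 4 with array weights, and 0 to 3 without single rats. Untreated tumor against untreated brain (5) gave 3 at a threshold of 0.01. MRT tumor against MRT brain (5) gave 3 with the floor and at 0.01, and 3 to 5 without single rats (3 without rat 7 or 8). The tissue difference (0) was 1 with the brightness filter, the spike-in covariate or the small-gap group, 2 with either replicate block, 3 with array weights and 0 to 2 without single rats. The block changed no other call than those given in the report. All 6 pair tests passed under every alternative run for them. No called difference changed its sign under the alternatives run. Over all probe sets the MRT response gave 1272 calls in contralateral brain (251 in the large-gap group to 2598 with array weights) and 285 in tumor (0 in the small-gap group to 1762), and the tissue difference 145 (18 to 561). Between tissues, the brightness filter lowered 17010 calls to 10546 and 16827 to 10721. Signals below 58, as for Il1r1 in all arrays and Il1a, Il1rn and Il1r2 in untreated brain, limit what can be read.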
